A study of Mus musculus with 3 samples.

Results

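Collagen genes encode the chains of the most abundant structural proteins of the extracellular matrix. The members described here are the protein-coding genes of the deposited table whose symbol is Col, a type number, the letter a and a chain number with nothing after it. The rule used names only and no measured value, and it found 44 genes of 27 collagen types among 55487 genes. Their RNA was measured in dendritic cells (BMDCs), immune cells that present antigen to T cells, cultured from the bone marrow of wild type (WT) mice. There were 3 libraries, 1 per group: untreated (Control), treated with P. vulgatus, a gut bacterium, and treated with YB328, a bacterial strain known by its code. The comparisons ask how the cells differ after each bacterium. With 1 library per group no difference has a replicate check and no p-value is given, and in bulk RNA fewer cells of a type and less RNA per cell cannot be told apart.

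Collagen chains wind around one another in a triple helix, which needs a glycine at the start of every Gly-X-Y triplet of the protein. Fibrillar collagens assemble into the banded fibres of skin, bone, tendon and cartilage, type IV builds the sheet of basement membranes, and type VI forms beaded filaments around cells. Fibroblasts, osteoblasts and chondrocytes are the main makers of fibrillar collagen, and endothelial and epithelial cells are main makers of type IV.

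The collagen classes differ in how far the triplet runs without a break. The stretches below show the triplet in the coding sequence, and the run lengths given after them show that difference. The first 54 bases of the longest unbroken run are given for a chain that fell (Col1a1), a chain that rose in counts (Col4a1) and the collagen with the highest TPM after either bacterium (Col27a1), and capitals mark the glycine codons (GGN) that open each triplet.
Col1a1: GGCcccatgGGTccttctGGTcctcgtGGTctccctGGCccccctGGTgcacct
Col4a1: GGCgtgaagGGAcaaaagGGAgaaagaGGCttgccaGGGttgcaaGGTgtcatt
Col27a1: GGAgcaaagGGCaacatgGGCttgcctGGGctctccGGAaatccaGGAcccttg
In the GENCODE M21 coding sequences the longest run was 338 triplets in Col1a1, 217 in Col27a1 and 40 in Col4a1. Over the 11 fibrillar genes it ranged from 216 to 344 triplets with a median of 338. In the 6 type IV genes, whose helix has many short breaks, it ranged from 39 to 66.

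Of the 44 collagen genes, 13 were expressed, meaning at least 5 CPM (read counts relative to library size, scaled between libraries) in at least 1 library. A further 15 were too low to judge, with more than 3 counts in some library and less than 5 CPM in all of them. The other 16 were not detected, with 3 counts or fewer in every library, and 11 of these had 0 counts throughout. A count above 0 was found for 30 members without bacteria, for 26 after P. vulgatus and for 25 after YB328, although the untreated library was the shallowest. At least 5 CPM was reached by 10 members in the untreated library and by 4 members with each bacterium.

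Most of the expressed collagens were high in untreated cells and low after either bacterium, and 3 were the other way round. A gene is said to have risen or fallen when it was expressed, the log2 ratio computed with 0.5 CPM added to both levels was 1 or more in either direction, and the exact 95% interval of its count ratio excluded 1. The intervals cover counting error only. With P. vulgatus 9 of the 13 expressed collagens fell and 3 rose against the untreated library, where 18.8% of the 10699 expressed genes of the table fell and 25.2% rose. With YB328 9 also fell and 3 rose, where 18.3% of all expressed genes fell and 24.7% rose. The median log2 ratio of the 13 was -3.68 with P. vulgatus and -3.03 with YB328, beside 0.15 and 0.17 over all expressed genes. Both comparisons share the untreated library, so they are not independent of each other. Entry into the 13 was tied to the outcome as well: 9 members reached 5 CPM in the untreated library alone, 3 after bacteria alone, and 1 in all 3 libraries.

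**Figure D1:**
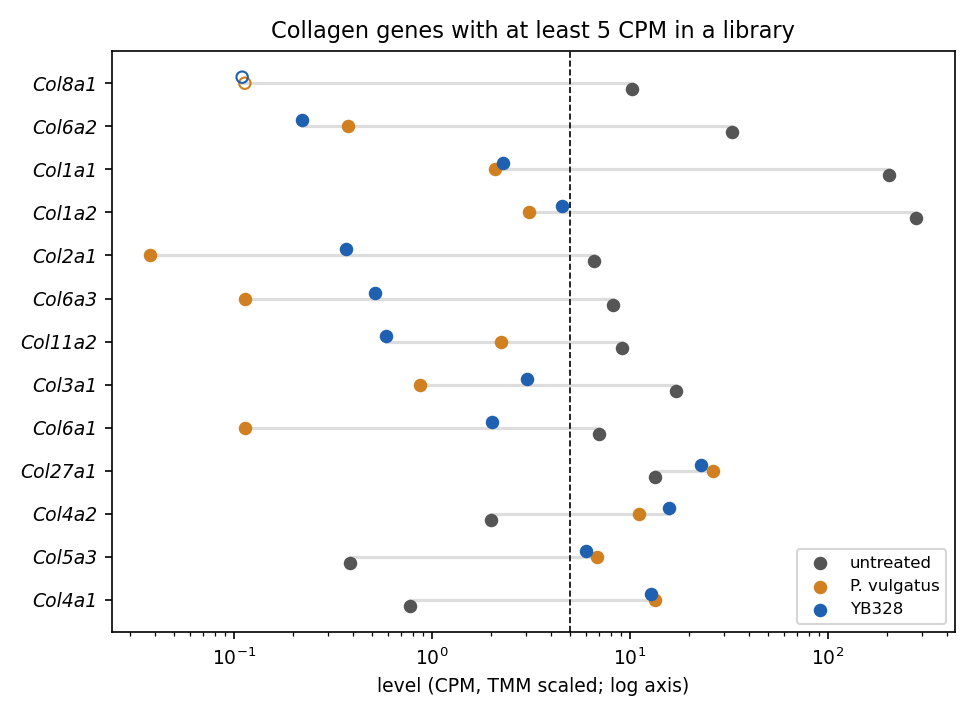
Level of the 13 expressed collagen genes in CPM on a log axis, 1 point per library. The dashed line is the minimum of 5 CPM, and open circles put Col8a1, with 0 counts after either bacterium, at the floor of 3 counts; 9 genes lie to the right in the untreated library and 4 lie to the left.

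Type I collagen, the main collagen of skin, bone and tendon, was the most abundant in untreated cells. Col1a1 (chr11:94936224-94953042, plus strand, GRCm38), its alpha 1 chain, had 3157 counts or 204 CPM in untreated cells, 55 counts or 2.08 CPM after P. vulgatus, and 62 counts or 2.27 CPM after YB328. Col1a2 (chr6:4504814-4541544, plus strand), its alpha 2 chain, had 4347 counts or 281 CPM untreated, 82 counts or 3.10 CPM after P. vulgatus, and 124 counts or 4.55 CPM after YB328. Both chains were thus high in the untreated library only and under 5 CPM in the other libraries. Col1a1 fell 97.8-fold with P. vulgatus (interval 75.0 to 130.2) and 89.6-fold with YB328 (69.7 to 117). Col1a2 fell 90.4-fold (72.6 to 114) and 61.7-fold (51.6 to 74.3). The TPM of Col1a1 was 0.598 times that of Col1a2 in untreated cells, 0.557 times after P. vulgatus and 0.396 times after YB328.

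The promoter of Col1a2 is shown with that of Col3a1, a fibrillar collagen of skin and vessels that is often laid down together with type I. Each window covers 250 bases before and 50 bases after the RefSeq start (GRCm38.p6), Col1a2 at chr6:4505368-4505667 and Col3a1 at chr1:45311288-45311587, both on the plus strand, and capitals mark, on either strand, the CCAAT box, the GC box (GGGCGG) and the TATA motif (searched as TATAA).
Col1a2: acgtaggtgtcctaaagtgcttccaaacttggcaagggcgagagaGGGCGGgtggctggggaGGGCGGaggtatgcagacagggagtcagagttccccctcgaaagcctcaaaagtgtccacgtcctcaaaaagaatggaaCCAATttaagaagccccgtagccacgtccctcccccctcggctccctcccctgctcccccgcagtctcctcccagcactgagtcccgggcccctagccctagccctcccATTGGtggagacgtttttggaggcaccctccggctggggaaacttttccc
Col3a1: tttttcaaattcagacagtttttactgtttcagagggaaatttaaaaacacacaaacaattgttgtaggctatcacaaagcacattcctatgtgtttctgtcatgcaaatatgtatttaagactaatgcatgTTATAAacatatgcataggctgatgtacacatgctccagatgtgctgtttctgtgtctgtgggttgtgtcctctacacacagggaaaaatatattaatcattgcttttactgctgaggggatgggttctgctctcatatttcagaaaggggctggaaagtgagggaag
The Col1a2 window held 2 CCAAT and 2 GGGCGG matches, and the Col3a1 window held 2 overlapping TATAA matches, 1 on each strand. Of the 44 collagen genes 35 had a window, 38 windows in all. CCAAT was in 34.2% of these and in 37.4% of all 32851 promoter windows, GGGCGG in 60.5% and 35.7%, and TATAA in 18.4% and 24.9%. A match describes these letters and is not a binding site.

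Among the other fibrillar collagens, Col3a1, Col2a1 and Col11a2 fell with both bacteria. Col3a1 (chr1:45311538-45349706, plus strand) had 265 counts untreated, 23 with P. vulgatus and 82 with YB328, that is 17.1, 0.871 and 3.01 CPM. It fell 19.6-fold with P. vulgatus (12.8 to 31.5) and 5.68-fold with YB328 (4.42 to 7.37), so the YB328 library lay between the others. Col2a1 (chr15:97975602-98004695, minus strand), the main cartilage collagen, had 102 counts untreated, 1 with P. vulgatus and 10 with YB328, or 6.58, 0.0379 and 0.367 CPM. Its ratio against P. vulgatus, which rests on 1 count, was 174 (30.5 to 6934), and it fell 17.9-fold with YB328 (9.37 to 38.5). Col11a2 (chr17:34039437-34066685, plus strand), a chain of the thin cartilage fibrils, had 141, 59 and 16 counts in the same order, or 9.10, 2.23 and 0.587 CPM. It fell 4.07-fold with P. vulgatus (2.99 to 5.62) and 15.5-fold with YB328 (9.22 to 27.9), and here the P. vulgatus library lay in between.

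All 3 expressed chains of type VI collagen, the beaded filament of the pericellular matrix, fell with both bacteria. Col6a2 (chr10:76595762-76623630, minus strand) was the highest of them per length, at 6.64 TPM in the untreated library. It had 506 counts untreated, 10 with P. vulgatus and 6 with YB328, or 32.7, 0.379 and 0.220 CPM, and fell 86.2-fold (46.5 to 181) and 148-fold (67.7 to 406). Col6a1 (chr10:76708792-76726168, minus strand) had 108, 3 and 55 counts, or 6.97, 0.114 and 2.02 CPM. Its ratio against P. vulgatus rests on 3 counts and was 61.4 (20.4 to 302), and it fell 3.45-fold with YB328 (2.47 to 4.87). Col6a3 (chr1:90765923-90843971, minus strand) had 127, 3 and 14 counts, or 8.20, 0.114 and 0.514 CPM. With P. vulgatus its ratio, again on 3 counts, was 72.2 (24.1 to 355), and with YB328 it fell 15.95-fold (9.17 to 30.01). The chains thus stood apart after YB328, where Col6a1 was at 2.02 CPM and Col6a2 at 0.220 CPM. Col6a4, Col6a5 and Col6a6 had 0 counts in all 3 libraries.

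Col8a1 (chr16:57624258-57754737, minus strand), a short-chain collagen of vessel walls and the corneal basement membrane, was the one expressed member without a count after either bacterium. It had 159 counts or 10.3 CPM untreated and 0 counts with either bacterium. Against a floor of 3 counts per library this is at least 90.3-fold lower with P. vulgatus and at least 93.2-fold lower with YB328. Its partner chain Col8a2 had 1, 1 and 0 counts and was not detected.

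The collagens that rose with both bacteria were the main chains of type IV, Col4a1 and Col4a2, and the type V chain Col5a3. Col4a2 (chr8:11312805-11449287, plus strand) had 31 counts untreated, 295 with P. vulgatus and 430 with YB328, or 2.001, 11.2 and 15.8 CPM. It rose 5.58-fold with P. vulgatus (3.85 to 8.37) and 7.89-fold with YB328 (5.47 to 11.8). Col4a1 (chr8:11198423-11312826, minus strand) had 12, 356 and 347 counts, or 0.774, 13.5 and 12.7 CPM. In counts it rose 17.4-fold (9.84 to 34.0) and 16.4-fold (9.29 to 32.1), but in deposited TPM it was at 1.37, 2.08 and 2.10, a log2 ratio of 0.60 and 0.61. Col5a3 (chr9:20770050-20815067, minus strand) had 6, 181 and 163 counts, or 0.387, 6.85 and 5.98 CPM, and rose 17.7-fold (7.97 to 48.9) and 15.4-fold (6.95 to 42.7). In CPM each of these genes was lowest in the untreated library, at 2.001 CPM or less, and above 5 CPM in both treated libraries.

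Col4a1 and Col4a2 lie head to head and share their start region, which is shown because both rose in counts. The windows are chr8:11312777-11313076 for Col4a1, read on the minus strand, and chr8:11312555-11312854 for Col4a2, read on the plus strand (GRCm38.p6), with the same motifs in capitals.
Col4a1: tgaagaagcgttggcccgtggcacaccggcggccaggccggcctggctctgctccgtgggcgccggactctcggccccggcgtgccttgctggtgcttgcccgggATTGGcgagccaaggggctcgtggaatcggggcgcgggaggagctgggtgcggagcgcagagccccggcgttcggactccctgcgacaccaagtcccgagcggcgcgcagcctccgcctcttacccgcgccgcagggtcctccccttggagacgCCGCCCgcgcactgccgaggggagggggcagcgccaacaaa
Col4a2: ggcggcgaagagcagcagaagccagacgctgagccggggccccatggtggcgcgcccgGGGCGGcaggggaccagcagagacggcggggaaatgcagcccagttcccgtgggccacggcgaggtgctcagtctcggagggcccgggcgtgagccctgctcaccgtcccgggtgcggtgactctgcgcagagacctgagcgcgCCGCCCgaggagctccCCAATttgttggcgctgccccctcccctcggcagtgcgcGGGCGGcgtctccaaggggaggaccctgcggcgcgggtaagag
The last 78 bases of each window are the same DNA read on opposite strands and hold 1 GGGCGG match and none of the other motifs. The annotated genes overlap by 22 bases, and reads from that overlap cannot be assigned because the library kit does not mark strand. The other type IV genes lie in head-to-head pairs too, Col4a4 with Col4a3 at a distance of 71 bases and Col4a6 with Col4a5 at 1308 bases. None of these was expressed: Col4a4 had 6, 8 and 5 counts, Col4a5 had 1 count in 1 library, and Col4a3 and Col4a6 had 0.

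Col27a1 (chr4:63214004-63334991, plus strand), a fibrillar collagen known from cartilage, was the one member above 5 CPM in all 3 libraries. It had 207 counts untreated, 695 with P. vulgatus and 622 with YB328, or 13.4, 26.3 and 22.8 CPM. Its ratio was 1.97 (1.68 to 2.31) with P. vulgatus and 1.71 (1.46 to 2.01) with YB328, log2 ratios of 0.95 and 0.75 after adding 0.5 CPM, which missed the size required. In TPM it was at 3.64 untreated and had the highest level of any collagen after P. vulgatus, at 8.14, and after YB328, at 6.60.

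**Figure D2:**
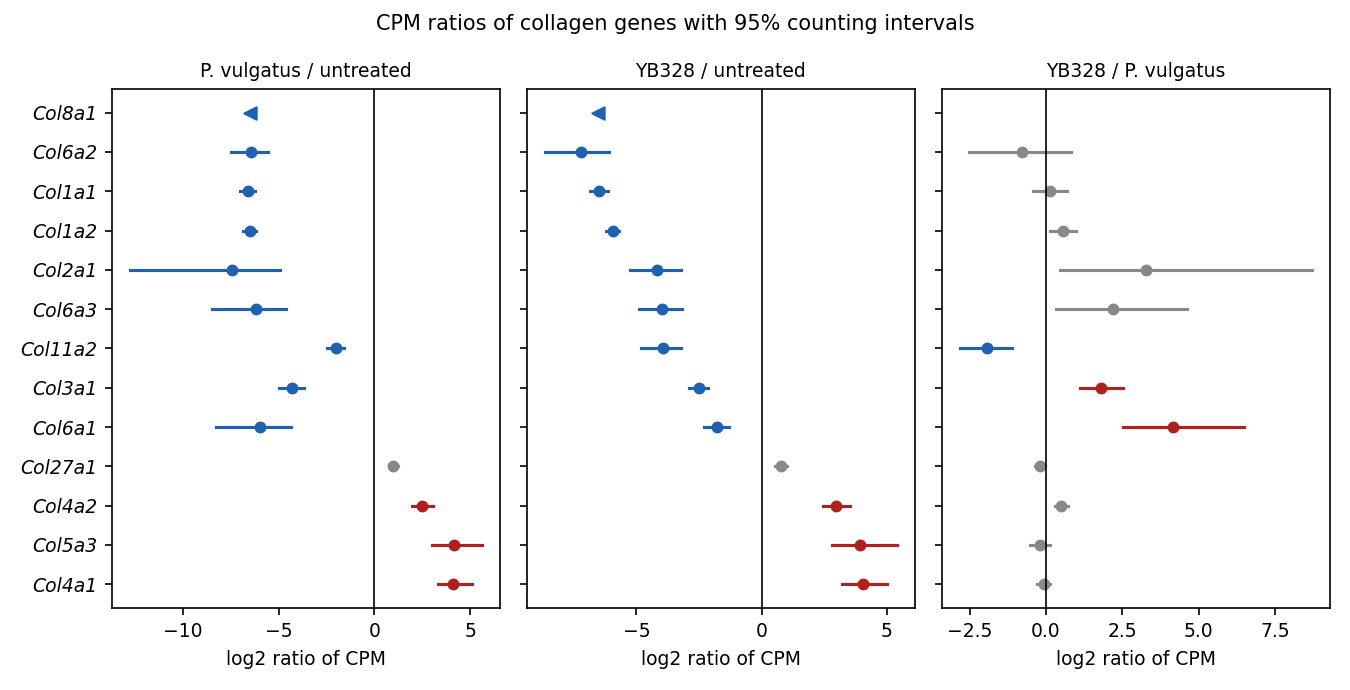
Log2 ratio of CPM for the 13 expressed collagen genes in each comparison, with exact 95% counting intervals as bars. Red marks genes that rose, blue those that fell and grey those that did not pass, and triangles are bounds for Col8a1; against the untreated library 9 genes lie far to the left, while between the bacteria 10 are grey or not shown.

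Between the bacteria few collagens differed by the size required. At least 5 CPM was reached with a bacterium by Col4a1, Col4a2, Col5a3 and Col27a1, and none of these passed. Col4a2 was 1.41-fold higher with YB328 than with P. vulgatus (interval 1.22 to 1.64), while Col4a1 was 1.06-fold lower (0.911 to 1.23), Col5a3 1.15-fold lower (0.922 to 1.42) and Col27a1 1.15-fold lower (1.03 to 1.29). Over the 13 collagens 2 rose and 1 fell with YB328 against P. vulgatus, where 3.40% of all expressed genes rose and 2.89% fell, and the median log2 ratio was 0.10 beside 0.00. Col3a1 rose 3.46-fold (2.15 to 5.75), from 23 to 82 counts. The ratio of Col6a1 was 17.8 (5.77 to 88.8), from 3 to 55 counts. Col11a2 fell 3.80-fold (2.16 to 7.08), from 59 to 16 counts. All 3 were under 5 CPM in both treated libraries and entered through their level in untreated cells, and none of them passed with 2 CPM added in place of 0.5.

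Summed over the 44 genes, collagen was at 609.7 CPM untreated, 75.0 CPM after P. vulgatus and 81.6 CPM after YB328, 8.13-fold and 7.47-fold lower. Without the type I chains the sums were 125.5, 69.8 and 74.8 CPM, a difference of 1.80-fold and 1.68-fold. Type I chains thus made up most of the untreated sum. In TPM, which allows levels to be compared between genes, the sum was 89.7 untreated, 17.6 with P. vulgatus and 19.7 with YB328.

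The class makeup of the collagen TPM differed as well. Fibrillar collagens made up 83.7% of collagen TPM in untreated cells, 71.3% after P. vulgatus and 56.2% after YB328. Behind these shares stand different genes: Col1a2 alone was 45.7% and Col1a1 27.3% of collagen TPM in untreated cells, whereas Col27a1 was 46.4% with P. vulgatus and 33.5% with YB328. Type IV chains made up 1.82%, 22.2% and 26.8%, and type VI chains 9.96%, 1.87% and 4.70%. The summed TPM of type IV was 1.635, 3.897 and 5.267, within totals of 89.7, 17.6 and 19.7, so its share changed with the total as well. The type IV share in untreated cells rests mostly on the TPM of Col4a1, which came from 12 counts. The type VI shares rest on 16 counts after P. vulgatus and 75 after YB328. Most of the type VI TPM after P. vulgatus was Col6a3, at 0.198 TPM from 3 counts.

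**Figure D3:**
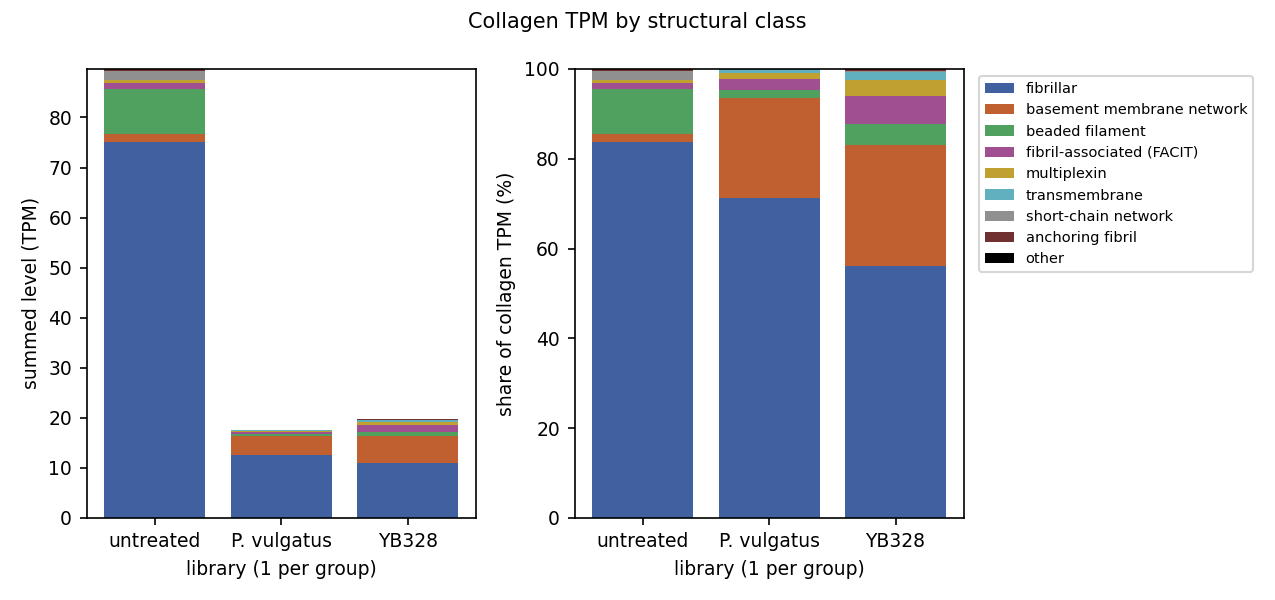
Collagen TPM by structural class in each library, as summed TPM on the left and as a share of collagen TPM on the right. The untreated bar reaches 89.7 TPM and the treated bars 17.6 and 19.7, and the basement membrane (type IV) share is 1.82% untreated against 22.2% and 26.8%.

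For most expressed collagens the count ratio and the TPM ratio were close, and Col4a1 and Col6a3 were exceptions. Over all genes the log2 CPM ratio was lower than the log2 TPM ratio by a median of 0.33 with P. vulgatus and 0.42 with YB328, so changes in TPM are read relative to that shift. On TPM 3163 genes of the table were higher and 1340 lower with P. vulgatus, where CPM gave 2696 and 2015, and with YB328 3456 were higher and 1160 lower, where CPM gave 2647 and 1955. At a minimum of 5 TPM 4 collagens were left, Col1a1, Col1a2 and Col6a2, which fell with both bacteria, and Col27a1. The log2 ratio of Col27a1 with P. vulgatus was then 1.06, which passed the size required as deposited. Taken relative to the shift of 0.33 it would not have passed. The log2 CPM ratio of Col4a1 was 4.12 and 4.04, that of its TPM 0.60 and 0.61. The log2 CPM ratio of Col6a3 was -6.17 with P. vulgatus and -4.00 with YB328, and its TPM gave -2.00 and -1.28. For Col11a2 the CPM and TPM ratios with P. vulgatus were -2.03 and -0.51, and with YB328 -3.95 and -3.92. By contrast the 2 scales gave -6.61 and -6.06 for Col1a1 with P. vulgatus, and 2.98 and 3.78 for Col4a2 with YB328.

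The length by which the authors' TPM divided each count can be read back from the table, by setting the count per TPM of a gene against that of genes with a single annotated transcript. For Col4a1 it was 492 bases in untreated cells, 7293 after P. vulgatus and 7276 after YB328. The annotated transcripts of Col4a1 are 6 of 416 to 1170 bases and 2 of 6487 and 6615 bases. For Col6a3 the length was 9018 bases untreated and 1877 with YB328, and for Col11a2 it was 4827, 2177 and 6455 bases. The authors' TPM thus used different lengths for these genes in different libraries, on 12 to 356 counts per library. Whether the transcripts themselves differed was not tested. For Col27a1 the length was 3203, 3639 and 4145 bases, where the annotated gene length is 7612 bases. Its TPM is thus higher than that annotated length would give.

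**Figure D4:**
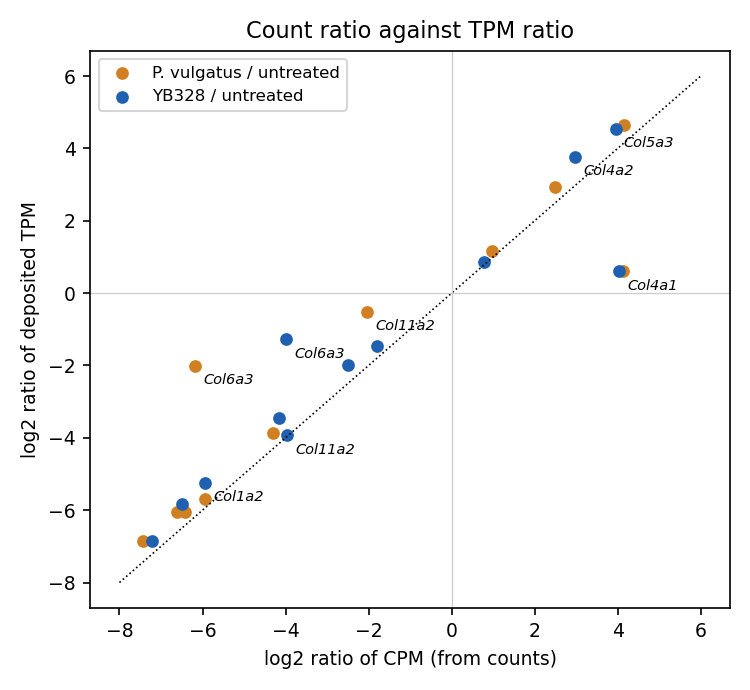
Log2 ratio of CPM (x axis) against log2 ratio of deposited TPM (y axis) for the expressed collagen genes, treated over untreated, 1 point per gene and bacterium; Col8a1, with 0 counts after treatment, is not shown. The dotted line marks equal ratios, and Col4a1 and Col6a3 lie far from it.

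The collagens too low to judge peaked at 4.13 CPM (Col5a2), 4.09 CPM (Col5a1) and 3.10 CPM (Col7a1) just under the minimum, and the lowest expressed ones peaked at 6.58 CPM (Col2a1), 6.85 CPM (Col5a3) and 6.97 CPM (Col6a1). Col5a2, a type V chain, had 64 counts untreated, 35 with P. vulgatus and 13 with YB328. Col5a1, its partner chain, had 13, 108 and 70 counts. Col7a1, which forms the anchoring fibrils of skin, had 48, 2 and 17 counts. The type V chains thus pointed in different directions in counts. The other genes of this class were Col4a4, Col9a2, Col9a3, Col10a1, Col11a1, Col12a1, Col14a1, Col15a1, Col16a1, Col18a1, Col20a1 and Col23a1, and none of them had more than 74 counts in a library.

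With no minimum level, so that every gene with a count entered, 15 collagens were lower and 4 higher with P. vulgatus against untreated, where 15.4% of 23716 genes were lower and 16.1% higher. With YB328 15 were lower and 5 higher, where 15.1% of all genes were lower and 15.5% higher. The 6 that this added to the lower side with both bacteria were Col5a2, Col7a1, Col12a1, Col15a1, Col16a1 and Col20a1. On the higher side it added Col5a1 with both and Col23a1, a transmembrane collagen, with YB328. Between the bacteria it added Col18a1, source of endostatin, with 22 counts after P. vulgatus and 74 after YB328, where 3.29% of all genes were higher and 3.23% lower. By gene coordinates Col18a1 overlaps Slc19a1, Col10a1 overlaps Nt5dc1 and Col20a1 overlaps 9230112E08Rik. The pairs of Col18a1 and Col10a1 lie on opposite strands, which the library kit does not mark, and that of Col20a1 on the same strand. Whether the exons of these pairs overlap was not examined, so their reads could be mixed. The 16 genes that were not detected were Col4a3, Col4a5, Col4a6, Col6a4, Col6a5, Col6a6, Col8a2, Col9a1, Col13a1, Col17a1, Col19a1, Col22a1, Col24a1, Col25a1, Col26a1 and Col28a1.

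Genes that fold, modify and export procollagen mostly rose while most expressed collagens fell. Of 17 expressed genes of this list, 12 rose and 3 fell with P. vulgatus, and 11 rose and 3 fell with YB328, with median log2 ratios of 1.57 and 1.22. Of all expressed genes 25.2% rose and 18.8% fell with P. vulgatus, and 24.7% rose and 18.3% fell with YB328, so the share of this list that fell was near that of all genes. P4ha1 and P4ha2, the catalytic chains of prolyl 4-hydroxylase, were at 23.2 and 3.10 CPM untreated, at 246 and 112 CPM after P. vulgatus, and at 193 and 24.3 CPM after YB328. Plod1, a lysyl hydroxylase, had 10.5, 73.6 and 63.6 CPM, and Sec24d, a coat protein of the vesicles that carry procollagen, had 7.87, 50.4 and 50.2 CPM. These 4 rose with both bacteria. The exceptions include Serpinh1 (Hsp47), the collagen-specific chaperone, with 86, 3 and 56 counts or 5.55, 0.114 and 2.05 CPM, and P3h3, of the prolyl 3-hydroxylase family, with 11.9, 0.644 and 1.91 CPM. Both fell with each bacterium and were higher with YB328 than with P. vulgatus. P4ha2 and Plod2, another lysyl hydroxylase, were lower with YB328 than with P. vulgatus, Plod2 at 1.87 CPM untreated, 10.7 with P. vulgatus and 4.46 with YB328.

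Of the enzymes that trim and crosslink collagen 5 were expressed, and with each bacterium 1 rose and 2 fell, beside 25.2% and 18.8% of all genes with P. vulgatus and 24.7% and 18.3% with YB328. The share that rose was near that of all genes, and 5 genes are few to read a share from. Bmp1, the protease that removes the C-propeptide of fibrillar procollagens, had 15.2, 3.22 and 0.183 CPM in untreated, P. vulgatus and YB328 cells. Pcolce, its enhancer, had 13.8, 0.189 and 0.294 CPM. Both fell with each bacterium, and Bmp1 was also lower with YB328 than with P. vulgatus. Adamts14, an N-propeptide protease, had 0, 91 and 158 counts, at least 17.8-fold and 29.9-fold higher. Lox, which starts the crosslinks, had 4.45, 8.86 and 6.75 CPM, and Loxl3 had 7.73, 4.73 and 5.89 CPM, and neither passed.

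Of the collagen receptors 6 were expressed: 1 rose and 3 fell with P. vulgatus, and 2 rose and 3 fell with YB328, where 18.8% and 18.3% of all genes fell and 25.2% and 24.7% rose. Mrc1, the mannose receptor, which takes up collagen, had 29.4, 6.13 and 2.27 CPM. Lair1, an inhibitory receptor for collagen on immune cells, had 17.3, 6.40 and 2.42 CPM. In CPM both fell with each bacterium and were lower with YB328 than with P. vulgatus. In TPM Lair1 was at 7.32, 5.73 and 2.14, a smaller difference with P. vulgatus. Itga1, the alpha chain of a collagen-binding integrin, fell as well, at 30.5, 5.02 and 10.4 CPM, and its partner Itgb1 was at 221, 372 and 471 CPM and rose with YB328. Adgrg1, an adhesion receptor that binds type III collagen, had 0.323, 7.65 and 4.37 CPM and rose with both. Cd36 was at 178, 119 and 269 CPM and passed between the bacteria only, and Ddr1, a collagen receptor kinase, was too low to judge at 21 to 23 counts.

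Of the genes of collagen breakdown 14 were expressed, 6 of which rose and 3 fell with P. vulgatus, and 8 rose and 3 fell with YB328. Of all genes 25.2% rose and 18.8% fell with P. vulgatus and 24.7% rose and 18.3% fell with YB328, so the share that fell was near that of all genes. With no minimum the median of the list with P. vulgatus was -0.01, where it was 0.78 with the minimum. Mmp13, a collagenase, rose from 10.5 CPM to 156 with P. vulgatus and 376 with YB328. The cathepsins Ctsl and Ctsk, lysosomal proteases, rose from 52.5 to 263 and 587 CPM and from 18.6 to 43.4 and 58.6 CPM. Timp1, an inhibitor of these metalloproteinases, rose from 14.1 CPM to 845 with P. vulgatus and 195 with YB328. Mmp2, a gelatinase, fell from 41.6 CPM to 3.14 and 4.22, and Reck, another inhibitor, from 9.74 to 1.40 and 0.624. The breakdown list thus held rises of enzymes and of an inhibitor alike. Mmp14 was at 107, 211 and 310 CPM and rose with YB328, Mmp9 at 38.9, 33.8 and 14.8 CPM and fell with YB328, and Mmp8, the neutrophil collagenase, at 127, 58.5 and 250 CPM and fell with P. vulgatus.

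Of 12 expressed matrix proteins that sit on collagen fibrils, 7 fell and 2 rose with P. vulgatus, and 7 fell and 3 rose with YB328, where 18.8% and 18.3% of all genes fell and 25.2% and 24.7% rose. The median log2 ratio of the list was -3.11 and -2.07, but its direction depended on the minimum and the scale. On deposited TPM, where 7 members were left, the median was 0.33 and 1.23, and at a minimum of 20 CPM, where 5 were left, it was 0.05 and 0.86. The summed level of the list was higher after treatment, at 623.5 CPM untreated, 3330.3 with P. vulgatus and 2658.7 with YB328, and after either bacterium most of it was Thbs1. Fn1, fibronectin, fell from 106 CPM to 7.95 and 5.10, Fbln1, fibulin 1, from 18.4 to 0.303 and 0.0734, and Thbs2 from 18.6 to 0.227 and 0.881. Sparc, a collagen-binding glycoprotein, fell from 41.5 CPM to 0.947 after P. vulgatus and 6.02 after YB328. Fbn1, the microfibril protein, fell from 85 counts to 1 and 26, and Bgn, biglycan, from 104 counts to 8 and 32. Sparc, Fbn1 and Bgn were higher with YB328 than with P. vulgatus. Thbs1, thrombospondin 1, rose from 169 CPM to 3034 and 2156, and Lum, lumican, from 2.001 to 12.1 and 8.37, while Dcn, decorin, was at 11.4, 11.7 and 20.99 CPM and did not pass.

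Among 5 expressed laminins and basement membrane partners of type IV collagen, 3 rose and 2 fell with P. vulgatus, and 2 rose and 2 fell with YB328, where 25.2% and 24.7% of all genes rose and 18.8% and 18.3% fell. The median was 1.36 and 0.95, and with no minimum, where 17 members entered, -0.32 and -0.38. Lamc1, the common laminin gamma chain, was at 5.94, 27.1 and 24.2 CPM, and Dag1, dystroglycan, at 14.004, 54.2 and 38.5 CPM. Both rose with each bacterium, as the counts of Col4a1 and Col4a2 did. Agrn, agrin, was at 16.9, 44.3 and 33.0 CPM and rose with P. vulgatus. Lamb2 fell from 9.16 CPM to 0.151 and 0.881 and was higher with YB328 than with P. vulgatus, and Lama5 fell from 7.55 to 3.37 and 1.91.

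**Figure D5:**
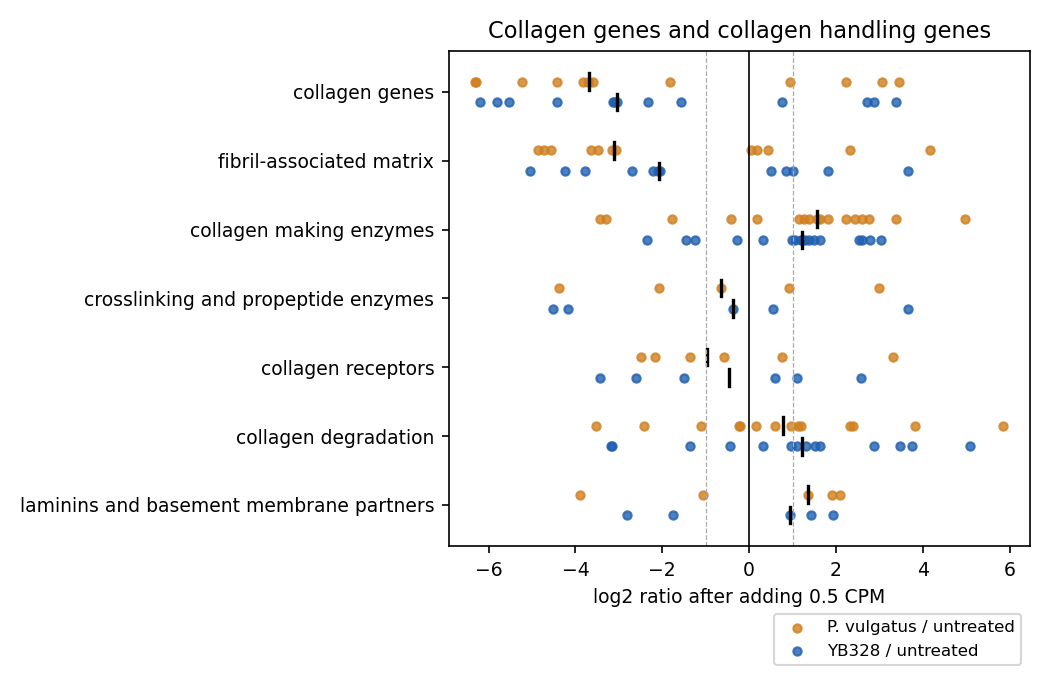
Log2 ratio to untreated, after adding 0.5 CPM, of every expressed gene of the collagen set and of 6 lists of collagen handling genes, with P. vulgatus and YB328 in separate rows. Black bars are medians and dashed lines the size required; collagens and fibril-associated matrix have medians between -3.68 and -2.07, the latter turning positive on TPM and at 20 CPM, and the making enzymes have medians of 1.57 and 1.22.

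The libraries differed in more than treatment. They held 15538133, 26660870 and 26924006 counts (untreated, P. vulgatus, YB328), so that 5 CPM stood for 77.5, 132 and 136 counts. Mitochondrial genes took 17.3%, 1.25% and 0.899% of counts, nuclear ribosomal RNA genes 9.54%, 0.789% and 0.386%, and protein-coding genes of the nucleus, leaving out Lars2, 57.9%, 95.3% and 96.6%. Collagen genes took 0.0608%, 0.00743% and 0.00826%. All 9 dendritic cell markers were expressed, in summed levels of 9709, 16651 and 16193 CPM. Ccr7, at 672, 5046 and 4679 CPM, and Cd86, at 119, 615 and 703 CPM, rose with both bacteria. Itgax (CD11c) was present in all libraries but fell from 272 CPM to 22.6 and 75.5. The other 6 did not pass, among them Ptprc (CD45) at 194, 161 and 177 CPM. Of all expressed genes 25.2% rose and 18.8% fell with P. vulgatus, and 24.7% rose and 18.3% fell with YB328.

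Markers of collagen-making cells moved in part with the collagens. The 15 fibroblast and stroma markers summed to 67.3, 68.9 and 81.9 CPM, but different genes stood behind these sums. Fbln1, the highest in untreated cells, was at 18.4, 0.303 and 0.0734 CPM. Fstl1, the highest after either bacterium, was at 4.58, 37.3 and 45.2 CPM. Expressed were 6, of which 3 fell with both bacteria (Fbln1, Bgn, Thy1) and 2 rose (Lum, Fstl1). Among all expressed genes 18.8% fell and 25.2% rose with P. vulgatus, and 18.3% fell and 24.7% rose with YB328. A list of 6 genes is short to read a share from. Of the 15, 4 (Dcn, Lum, Fbln1, Bgn) are also on the fibril-associated list. The defining genes Pdgfra and Pdgfrb were too low to judge, at 57, 4 and 1 counts and at 42, 9 and 17 counts, and Thy1 fell from 116 counts to 29 and 38. None of the 15 was at 0 in the untreated library, Fap was at 0 with P. vulgatus, and Fap, Mgp and Prrx1 were at 0 with YB328. Chondrocyte markers (5) summed to 51, 0 and 5 counts and osteoblast markers (6) to 3, 23 and 15 counts, nearly all of the latter Alpl. Smooth muscle and pericyte markers (6) summed to 116, 62.4 and 85.4 counts, or 7.51, 2.36 and 3.13 CPM. Most of these were Tagln, at 60.7, 4.15 and 3.21 counts, and Acta2, at 52.64, 53.23 and 73.15 counts. No gene of these 3 lists was expressed. All 6 neutrophil markers fell, in sum from 4389 CPM to 328 and 293. The 4 epithelial markers summed to 90.1, 19.7 and 15.5 CPM, and most of this was Cdh1, at 1193, 397 and 305 counts. Cdh1 and Epcam, the latter at 134, 38 and 39 counts, fell with both bacteria. The keratins Krt8, at 37, 51 and 48 counts, and Krt18, at 32, 34 and 31 counts, were too low to judge.

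Alongside the type IV chains, the 8 endothelial markers summed to 6.78, 94.8 and 141.6 CPM, and all 3 expressed ones rose with both bacteria. Among all expressed genes 25.2% rose with P. vulgatus and 24.7% with YB328, and 3 genes are few to read a share from. Most of the sum after either bacterium was Kdr, at 65.5 and 104.5 CPM. The others were too low to judge or not detected: Cdh5 had 0, 15 and 17 counts, Esam 1, 46 and 72, Tie1 2, 1 and 7, Tek 0, 1 and 0, and Emcn 7, 0 and 0. Kdr, the main VEGF receptor, had 3, 1730 and 2849 counts, and Vwf, von Willebrand factor, 34, 356 and 458 counts. The 7 macrophage markers summed to 452, 954 and 1653 CPM, and 3 of them rose. The part of these cell types, of the RNA makeup and of depth in the collagen values was not tested, and with 1 library per group they cannot be told apart from treatment.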

How the data were processed

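RNA of 3 BMDC libraries was read by RNA sequencing. Per the labels' protocols, RNA came off an RNeasy Micro kit and was made into cDNA with the SMART-Seq v4 kit and into libraries with Nextera XT, which does not mark strand. The submitters' processing notes name DRAGEN and the build GRCm38. Not given in the sources used here: version of DRAGEN, how counts were made, the annotation release, the dose and the time of exposure. The deposited count values, named counts in the file headers, were taken as estimated counts per gene. Of them 8.86% to 9.99% per library are not whole, and they were rounded for intervals. The deposited TPM values are named TPM in the file headers, a unit that corrects for length within each library.

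Counts were scaled by the trimmed mean of M values in edgeR 4.0.16 (R 4.3.3), used for size factors only, to CPM. All else used Python 3.11.15 with numpy 2.4.6, pandas 2.3.3, scipy 1.17.1 and matplotlib 3.10.9. Count ratios have exact 95% Clopper-Pearson intervals conditional on the sum, which cover counting error only, and a fold against 0 counts was computed from a floor of 3 counts, 0.194 CPM in untreated cells, 0.114 after P. vulgatus and 0.110 after YB328. The rule of size was run on the whole table and tested on simulated data. The text names every expressed collagen, up to 4 members per other list and comparison with the largest ratios, and a panel of further genes; other genes named beside a count were picked after their values were seen. The members, the lists (6 of functions, 9 of markers) and the rules were chosen with earlier results of these data known. All 44 members were found in GENCODE M21 with the coordinates of the table. Glycine codons were read from M21 coding sequences, in place of the protein sequences written down for this step, and promoters from RefSeq (GRCm38.p6). The lengths read back from counts and TPM, the choice of printed sequences and the width within which a median counted as unmoved were settled after seeing the data. The alternatives tried were size factors by median of ratios, plain total counts, scaling on nuclear protein-coding genes without Lars2, the deposited TPM, no minimum, minimums of 20 CPM or 10 counts, 0.1 or 2 CPM added, and thinning to the shallowest library.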

Additional observations from a re-analysis of the deposited data

How the results depend on the processing

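No paired analysis was possible because each group has 1 library, and no library could be left out. No call of a single collagen gene reversed under the alternatives run. Size factors by median of ratios, plain total counts, scaling on nuclear protein-coding genes without Lars2 and thinning to the shallowest library left the collagen counts within 1.5 times and the medians unmoved.

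The deposited TPM, which changes the scale and with it the genes that pass the minimum, the other minimums and the CPM added moved counts and medians; which part of the TPM change did so was not tested. With the deposited TPM or a minimum of 20 CPM 4 collagens remained in the comparison. With P. vulgatus against untreated 1 was then higher on TPM and 0 at 20 CPM, and 3 were lower on both. The 1 higher on TPM was Col27a1, without allowing for the shift of TPM against CPM. With YB328 0 were higher on both and 3 lower on both. Between the bacteria 0 were higher and 0 lower on both. With no minimum, 15 were lower with each bacterium and 5 higher with YB328. With 0.1 CPM added 4 were higher with YB328 than with P. vulgatus, Col2a1 and Col6a3 joining, and with 2 CPM added 0 were higher and 0 lower.

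The median log2 ratio with P. vulgatus was -1.88 with at least 10 counts required, -0.83 with no minimum, -5.76 at 20 CPM, -5.05 with 0.1 CPM added and -2.09 with 2 CPM added. With YB328 it was -1.57, -0.38 and -5.66 under the first 3 of these, -1.93 with 2 CPM added and -4.19 on TPM. Between the bacteria the median ranged from -0.05 to 0.48 over the alternatives, so its sign is not fixed. The number of members entering changed with the minimum, from 33 with no minimum to 4. Of the single collagen ratios 299 stayed as they were, either with the same call or without a call. A further 45 lost a call, 3 gained a call and 4 moved without a call. Most lost calls came from members under the minimum on TPM or at 20 CPM. The median of the fibril-associated matrix list against untreated turned positive on TPM and at 20 CPM, and those of the laminin list with both bacteria and of the breakdown list with P. vulgatus turned negative with no minimum. Between the bacteria the medians of the crosslinking, receptor and fibril-associated lists also changed sign under 1 or 2 alternatives each. Over all the lists beside the collagens 954 values stayed and 177 moved, and their single genes were not recomputed. Depth limits the fallen members most: after treatment 1 to 124 counts stand behind each of them that has any.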
